A study of Mus musculus with 8 samples.

Results

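The Gimap genes encode the GTPases of the immunity-associated protein family, and 8 of them were measured here: Gimap1, Gimap3, Gimap4, Gimap5, Gimap6, Gimap7, Gimap8 and Gimap9. They were found as the genes named, alone, by a probe set of the array, which gave 11 of 45101 probe sets and 8 of 18193 genes. The family was selected on its values in immunized against naive samples, so those values are given below as a description, and no test of the family is made. RNA came from lumbar intervertebral discs of female BALB/c mice, with 6 discs pooled in each sample and 1 array per sample. The 5 immunized samples came from mice with proteoglycan-induced spondylitis, an autoimmune inflammation of the spine, and the 3 naive samples from mice matched for age and not immunized. The immunized mice were injected on days 0, 21 and 42 with cartilage proteoglycan (100 µg of protein) emulsified with dimethyldioctadecylammonium bromide (2 mg) as adjuvant. No source used here states the age. The replicates are titled as biological. A pair of sample numbers stands in the description of naive replicate 3 and another in that of immunized replicate 1, so how many mice lie behind these samples is uncertain.

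GIMAP proteins bind GTP through a domain related to that of septins, and most sit on membranes inside the cell. They are best known from lymphocytes, where several members keep resting T and B cells alive, and some are also transcribed in the endothelium of blood vessels. The genes lie side by side on mouse chromosome 6, in the RefSeq order Gimap8, Gimap9, Gimap4, Gimap6, Gimap7, Gimap1, Gimap5 and Gimap3.

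Each value is a log2 difference from the probe set's own median over the 8 arrays, so 0 is that median and a difference of 1 is a doubling. A gene with several probe sets was measured by their mean. These values show how a gene varies between samples and hold no level that could be set against another gene. Medians of single arrays ran from -0.012 to 0.016, and precision is limited by the number of arrays. A rough class of signal for a probe set's lowest array was read from how finely its numbers are spaced. Such a class depends on the probe set and is no measure of amount between genes. As a check of the tissue, all 10 measured markers of disc chondrocytes had a probe set at 8 or more (log2) on every array, but so had all 6 erythroid markers, 8 of 9 neutrophil markers and 9 of 10 genes of T cell receptor signalling, so this reading did not single out disc. The share was 2 of 12 for T cell markers and 8251 of 18193 for all genes. Among the Gimap genes these were Gimap4, Gimap6 and Gimap8. For the other 5 members the lowest array lay between 4 and 8.

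Every Gimap gene had a difference above 0 in immunized against naive discs, from 0.01 for Gimap6 to 0.92 for Gimap9, with a median of 0.45. Over all genes the median difference was -0.04, and 43.9% of genes had a difference above 0. In Gimap9, Gimap4, Gimap1 and Gimap7 the lowest of the 5 immunized samples was above the highest of the 3 naive samples, as it was in 9.39% of all genes. The same 4 members had an adjusted p under 0.05 in limma, and 0 members were lower. For all genes the shares called were 4.46% higher and 4.68% lower, or 9.14% in all. With an unadjusted p under 0.05 in limma, too, 4 members were higher and 0 lower, against 12.9% and 18.2% of all genes. Since the family was proposed from this contrast, nothing is read from these counts. In bulk tissue, more cells of a type and more RNA per cell cannot be told apart.

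**Figure D1:**
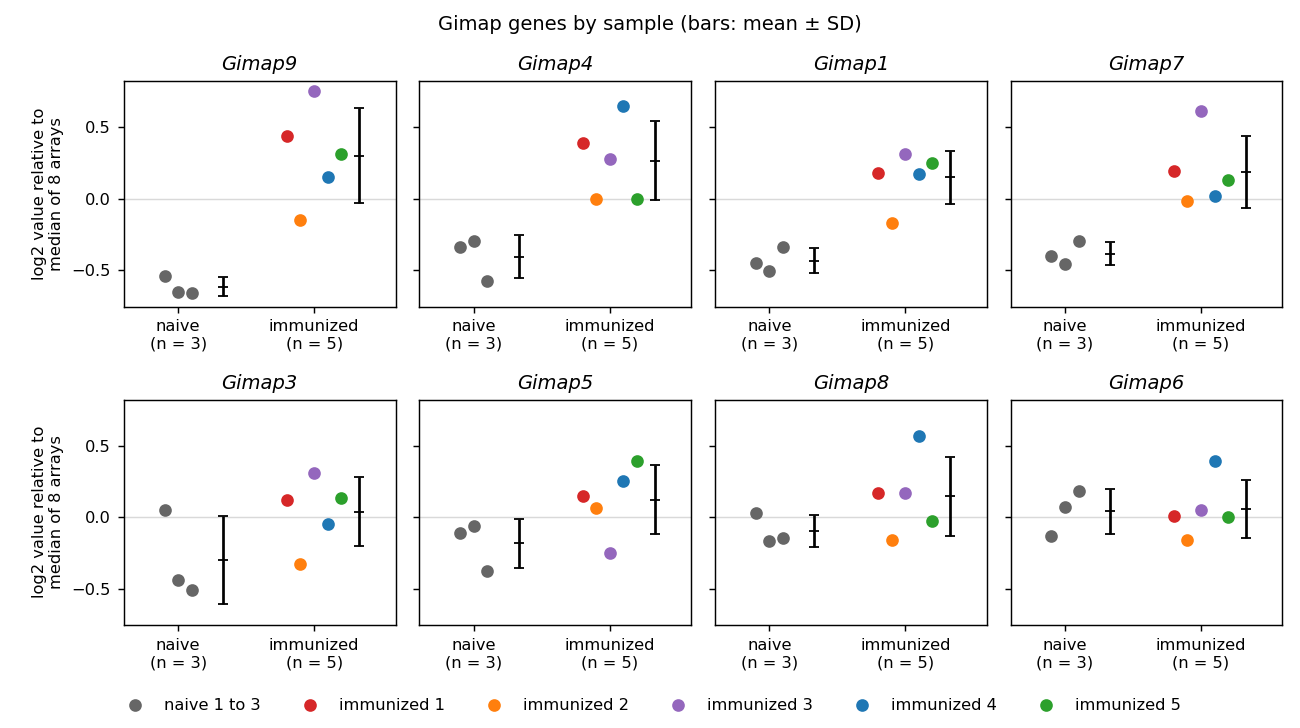
Each panel plots 1 Gimap gene, with the log2 value relative to the median of the 8 arrays on the vertical axis, a point for each sample and bars for the mean ± SD of the 3 naive and 5 immunized samples. In Gimap9, Gimap4, Gimap1 and Gimap7 the groups do not overlap, and in the other 4 genes they do.

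Gimap9 had the widest difference of the family. Its naive values were -0.54, -0.65 and -0.66 in replicates 1 to 3. The immunized values were 0.44, -0.15, 0.75, 0.15 and 0.31 in replicates 1 to 5. The naive samples lay close together (SD 0.064, n = 3), the immunized samples were spread out (SD 0.335, n = 5), and the lowest of these, immunized replicate 2, was still 0.39 above the highest naive sample. The difference was 0.92 ± 0.18 (limma's standard error, SE, as for all differences below), or 1.89-fold.

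Gimap4 encodes a GTPase that hastens the death of T cells once apoptosis has begun. Values in naive replicates 1 to 3 were -0.34, -0.30 and -0.58. Those in immunized replicates 1 to 5 were 0.39, 0.00, 0.28, 0.65 and 0.00. Immunized replicate 4 was highest and replicates 2 and 5 were lowest of the immunized samples, with a gap of 0.30 to the naive samples. The difference was 0.67 ± 0.16, or 1.59-fold.

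Gimap1 is needed in mice for mature T and B cells. It stood at -0.45, -0.51 and -0.34 in the naive samples. In the immunized samples it stood at 0.18, -0.17, 0.31, 0.17 and 0.25. Of the 4 members without overlap it had the narrowest gap between the groups, 0.17, and the least spread among immunized samples (SD 0.186, n = 5). The difference was 0.58 ± 0.11.

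Gimap7, whose human counterpart speeds GTP hydrolysis by GIMAP2, read -0.40, -0.46 and -0.30 in naive discs. In immunized discs the readings were 0.19, -0.02, 0.61, 0.02 and 0.13. Immunized replicate 3 stood well above the other immunized samples, which lay between -0.02 and 0.19. The difference was 0.57 ± 0.14, or 1.49-fold.

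The stretches upstream of these 4 genes are shown because their values moved in the same direction, and that of Gimap6 because its groups overlapped and its difference was near 0. Each holds the 250 bases before the gene's start, from RefSeq in build GRCm38.p6, read 5′ to 3′ on the gene's own strand. Capitals mark matches, on either strand, to letters typical of binding sites of lymphocyte transcription factors: GGAAGT for the ETS family, TGTGGT for RUNX factors and TTCNNNGAA for STAT factors.
Gimap9 (chr6:48675885-48676134, plus strand): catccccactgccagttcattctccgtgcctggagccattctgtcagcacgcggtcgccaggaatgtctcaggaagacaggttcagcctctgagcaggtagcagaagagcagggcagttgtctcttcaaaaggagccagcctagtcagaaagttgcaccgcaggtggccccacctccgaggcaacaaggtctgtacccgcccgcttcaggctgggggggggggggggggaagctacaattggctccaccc
Gimap4 (chr6:48684328-48684577, plus strand): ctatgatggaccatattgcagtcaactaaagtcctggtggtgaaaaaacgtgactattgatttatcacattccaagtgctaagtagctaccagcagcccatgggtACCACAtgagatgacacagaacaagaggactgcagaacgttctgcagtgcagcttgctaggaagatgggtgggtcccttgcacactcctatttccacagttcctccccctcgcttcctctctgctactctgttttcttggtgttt
Gimap1 (chr6:48738797-48739046, plus strand): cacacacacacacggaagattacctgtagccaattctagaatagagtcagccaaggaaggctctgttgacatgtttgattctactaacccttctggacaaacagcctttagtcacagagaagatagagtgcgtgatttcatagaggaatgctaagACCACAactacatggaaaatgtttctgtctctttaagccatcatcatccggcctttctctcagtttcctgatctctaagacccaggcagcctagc
Gimap7 (chr6:48718371-48718620, plus strand): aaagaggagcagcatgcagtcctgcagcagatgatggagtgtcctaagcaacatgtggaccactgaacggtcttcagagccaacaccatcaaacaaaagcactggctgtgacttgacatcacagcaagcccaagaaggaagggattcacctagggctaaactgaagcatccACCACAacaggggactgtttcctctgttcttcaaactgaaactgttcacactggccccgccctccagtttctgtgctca
Gimap6 (chr6:48708245-48708494, minus strand): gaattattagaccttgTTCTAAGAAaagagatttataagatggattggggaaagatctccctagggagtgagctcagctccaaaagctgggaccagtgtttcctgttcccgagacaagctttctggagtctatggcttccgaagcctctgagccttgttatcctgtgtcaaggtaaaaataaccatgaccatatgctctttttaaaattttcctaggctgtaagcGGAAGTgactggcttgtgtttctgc
The RUNX letters were found in Gimap4, Gimap1 and Gimap7, where they begin 145, 95 and 79 bases before the start, and in none of the other member stretches. All 8 genes matched the RefSeq table, with 9 stretches in all because Gimap8 has 2 listed starts. Of 32851 stretches of the same length, 14.0% held the RUNX letters. The ETS letters were present in Gimap6 and in Gimap5 (19.7% of all stretches), and the STAT letters in Gimap6 and 1 of the Gimap8 stretches (7.02%). Gimap9, with the widest difference, had no match to any of them. These letter matches describe the sequence and do not show binding.

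In the other 4 members the groups overlapped. Gimap3 encodes a close relative of the Gimap5 protein that is tied to the inheritance of mitochondrial DNA in blood cells. Its naive values were 0.05, -0.44 and -0.51, and its immunized values 0.12, -0.33, 0.31, -0.05 and 0.13. Naive replicate 1 lay among the immunized samples, and the difference was 0.33 ± 0.17. Without that sample it was 0.51.

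Gimap5, whose loss leaves mice and rats with few lymphocytes, read -0.11, -0.06 and -0.38 in naive and 0.15, 0.06, -0.25, 0.25 and 0.39 in immunized discs. Immunized replicate 3, the highest sample in Gimap9, Gimap7, Gimap1 and Gimap3, was here the lowest of the immunized samples and lay below naive replicates 1 and 2. The difference was 0.30 ± 0.15.

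Gimap8 encodes the largest protein of the family, with several GTPase domains in a row. Its values were 0.03, -0.17 and -0.15 in naive and 0.17, -0.16, 0.17, 0.57 and -0.03 in immunized samples. Immunized replicate 4 was far above the rest, and the difference was 0.24 ± 0.15, or 0.13 without that sample. Gimap6 binds GABARAPL2, an ATG8 protein of autophagy. It read -0.13, 0.07 and 0.18 in naive and 0.01, -0.16, 0.05, 0.39 and 0.00 in immunized discs, so that the groups covered each other. The difference was 0.01 ± 0.13, and its sign turned in 5 of 16 other settings.

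Genes with a pair of probe sets show how far the choice of probe set bears on a value. Groups did not overlap in 6 of the 11 probe sets, all higher, as in 9.54% of all probe sets. Both Gimap4 probe sets were among them, with differences of 0.74 ± 0.16 (1424374_at) and 0.61 ± 0.18 (1424375_s_at). The Gimap7 probe sets differed more from each other, at 0.77 ± 0.15 (1425084_at) and 0.38 ± 0.15 (1444283_at). In the latter, immunized replicate 3 stood at 0.59 and the other immunized samples between -0.03 and 0.08. Those of Gimap6 fell on either side of 0, at 0.10 ± 0.15 (1427891_at) and -0.07 ± 0.16 (1456762_at). Tested singly among 34945 probe sets, 4 of the 11 had an adjusted p under 0.05 in limma, all higher, against 3.61% of all probe sets. Probe sequences were not used here, so binding of a probe set to the transcript of another Gimap gene could not be checked.

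**Figure D2:**
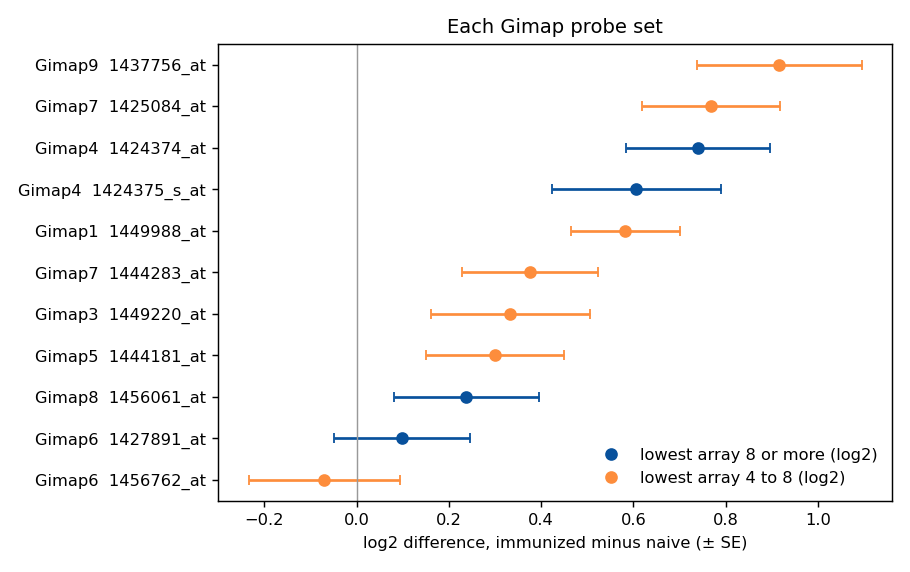
The 11 Gimap probe sets are listed with the log2 difference, immunized minus naive, on the horizontal axis and its SE as a bar. Colour gives the coarse level of the lowest array. The differences run from -0.07 in a Gimap6 probe set to 0.92 in Gimap9, and 10 of 11 lie above 0.

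The members did not share 1 order of samples. Gimap9, Gimap7, Gimap1 and Gimap3 were highest in immunized replicate 3. Gimap4, Gimap8 and Gimap6 were highest in immunized replicate 4, and Gimap5 in immunized replicate 5. Of all genes, 24.5% were highest of the immunized samples in replicate 3, 17.8% in replicate 4 and 19.3% in replicate 5. Among the immunized samples, replicate 2 was lowest in 7 members, as it was in 22.3% of all genes, and Gimap5 was the exception. Pearson's r over the 8 samples, a description without a test, ranged from -0.12 (Gimap3 with Gimap6) to 0.97 (Gimap7 with Gimap9) over the 28 pairs, with a median of 0.55. These values contain the difference between the groups. After each group's mean was subtracted, r over the same 8 samples was 0.89 for Gimap7 with Gimap9 and 0.89 for Gimap4 with Gimap8, but -0.02 for Gimap4 with Gimap7. Gimap6 followed Gimap8 (0.70) and Gimap4 (0.60) and had 0.01 with its genomic neighbour Gimap7. Gimap5 with Gimap7 had the lowest value, -0.74. The pairs share the same 8 arrays, and Gimap4, Gimap6 and Gimap8 are also the 3 members with a probe set at 8 or more on every array.

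**Figure D3:**
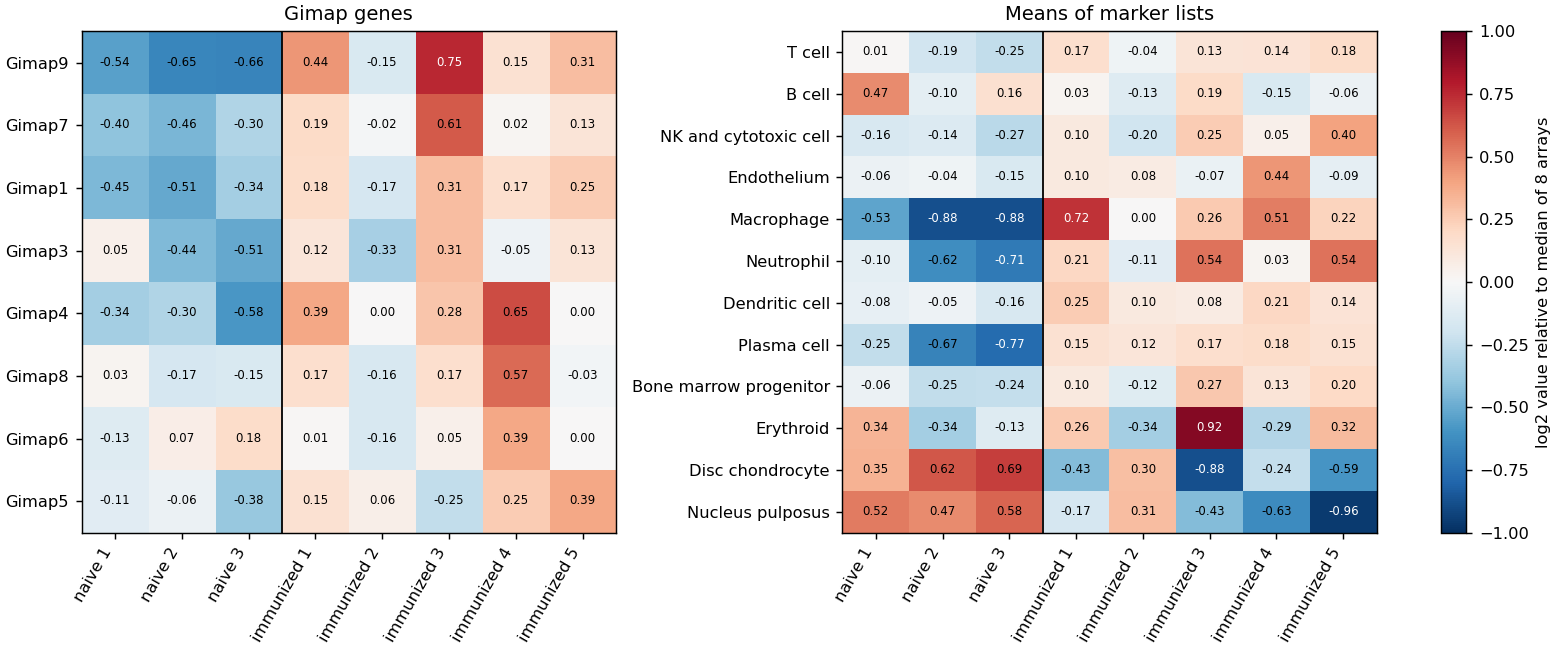
Rows are the 8 Gimap genes (left) and the means of the 12 lists of cell type markers (right), columns are the 8 samples, and colour and numbers give log2 relative to the median of the 8 arrays. Gimap9, Gimap7, Gimap1 and Gimap3 are highest in immunized replicate 3 and Gimap4, Gimap8 and Gimap6 in immunized replicate 4. The endothelium mean is highest in replicate 4 (0.44) and the erythroid mean in replicate 3 (0.92).

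Markers of cell types that express Gimap genes, and of others a disc sample could hold, were measured in the same samples. Of 12 T cell markers, Cd3g, a chain of the T cell receptor complex, rose (1.03 ± 0.23) and Cd8b1, a chain of the CD8 coreceptor, fell (-0.39 ± 0.08), while Cd3e differed by 0.12 ± 0.08. At an unadjusted p under 0.05 in limma, 3 T cell markers were higher and 1 lower. The further 2 higher were Cd3d (1.09 ± 0.35, adjusted p = 0.0791) and Cd28 (0.45 ± 0.12, adjusted p = 0.0508), named after their values were seen. The T cell median was 0.13, and the list's mean ran from -0.25 to 0.01 in naive and from -0.04 to 0.18 in immunized samples, so the groups overlapped. Of 10 B cell markers 0 passed in limma (3 lower at an unadjusted p under 0.05), with Cd79a, the signalling chain of the B cell receptor, at -0.83 ± 0.26 and Vpreb3 at -0.64 ± 0.27. The B cell median was -0.19, and 3 of the 10 differences were above 0. The list's mean overlapped between groups, from -0.10 to 0.47 in naive and from -0.15 to 0.19 in immunized samples. It was highest in naive replicate 1 (0.47). Of 8 NK and cytotoxic cell markers 0 passed in limma (3 higher, unadjusted), with the granule protease Gzmb at 0.51 ± 0.14 and Nkg7 at 1.03 ± 0.37. Their mean ran from -0.27 to -0.14 in naive and from -0.20 to 0.40 in immunized discs.

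Of 13 endothelium markers, with a median difference of 0.19, Erg, a transcription factor of vessels, rose (0.33 ± 0.07), and the adhesion molecule Pecam1 differed by 0.18 ± 0.26 (3 markers higher and 1 lower, unadjusted). Immunized replicate 4 had the highest endothelium mean (0.44), against -0.09 to 0.10 in the other immunized and -0.15 to -0.04 in the naive samples. It was also the sample highest in Gimap4, Gimap8 and Gimap6. Within the list, Pecam1 was highest in replicate 4 (0.63), but Erg was lowest of the immunized samples there (0.00). Of 9 macrophage markers 6 rose, among them Lyz2 (0.91 ± 0.13), Itgam (1.81 ± 0.29) and Mpeg1 (1.39 ± 0.24). Their mean ran from -0.88 to -0.53 in naive and from 0.00 to 0.72 in immunized samples, with replicate 2 lowest of the immunized, as in 7 Gimap genes. Replicate 2 was also lowest of the immunized samples in the T cell, NK, neutrophil, plasma cell, progenitor and erythroid means. In the B cell, endothelium and dendritic cell means another sample was lowest. In the disc chondrocyte (0.30) and nucleus pulposus (0.31) means replicate 2 was highest of the immunized. Of 7 measured progenitor markers of bone marrow, Cd48, a surface protein of many leukocytes, rose (1.13 ± 0.22), and Hlf fell (-0.66 ± 0.09). Immunized replicate 3, highest in Gimap9, Gimap7, Gimap1 and Gimap3, had the highest means of the erythroid (0.92, against -0.34 to 0.34 in the other samples) and progenitor (0.27) lists and the lowest of the disc chondrocyte list (-0.88). Erythroid markers had 0 of 6 passing in limma (0 unadjusted), with Epb42 at 0.63 ± 0.33 and Gata1 at 0.34 ± 0.34. The part of any of these cell types in the Gimap values was not tested.

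The remaining marker lists differed in how many members passed. Of 9 neutrophil markers 3 rose, the chemokine receptor Cxcr2 (1.54 ± 0.34), the calcium-binding protein S100a9 (0.40 ± 0.09) and the collagenase Mmp8 (1.47 ± 0.35). The neutrophil mean overlapped between groups (-0.71 to -0.10 in naive, -0.11 to 0.54 in immunized samples). Of 8 plasma cell markers 3 rose, the antibody joining chain Jchain (2.99 ± 0.27), the IgM heavy chain Ighm (1.71 ± 0.38) and the transcription factor Xbp1 (0.26 ± 0.07). The list's median was 0.29, with 6 of the 8 differences above 0. Tnfrsf17 (-0.14 ± 0.09) and Sdc1 (-0.09 ± 0.23) were below 0 and Mzb1 differed by 0.01 ± 0.30, all named after their values were seen. Plasma cell means were -0.77 to -0.25 in naive and 0.12 to 0.18 in immunized samples. Jchain alone stood between -3.13 and -1.99 in naive samples. Dendritic cell markers had 0 of 6 passing in limma (2 higher, unadjusted), with Flt3 at 0.33 ± 0.13 and Itgax at 1.29 ± 0.54. Their median was 0.09, with 4 of the 6 differences above 0. Itgax stood at 2.62 in immunized replicate 4 and between -0.01 and 0.93 in the other immunized samples. Of 10 disc chondrocyte markers 4 fell, among them the collagen gene Col11a2 (-1.26 ± 0.27), Snorc (-1.30 ± 0.29) and the cartilage transcription factor Sox9 (-0.83 ± 0.19), while Acan, the main proteoglycan of cartilage, differed by -0.95 ± 0.30. Of 6 nucleus pulposus markers the keratin Krt19 fell (-2.01 ± 0.36). Their means ran from 0.35 to 0.69 and from 0.47 to 0.58 in naive samples, and from -0.88 to 0.30 and from -0.96 to 0.31 in immunized samples.

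Genes that work with the Gimap proteins or in the same cells were measured as further lists. Of all genes, 9.14% were called in limma, and the counts of these lists were not tested against that share. A list of 10 genes covered signalling by interleukin 7, which keeps resting T cells alive, and by the common gamma chain. Of these the kinase Jak1 rose (0.40 ± 0.10). The median was 0.02 (2 genes higher and 1 lower, unadjusted). Besides Jak1 these were Il7r (1.06 ± 0.36), higher, and Il15ra (-0.35 ± 0.15), lower, both named after their values were seen. Of 11 genes of the BCL2 family, which controls cell death, Mcl1, which protects cells, rose (0.45 ± 0.09). The median was 0.03 (2 genes higher and 1 lower, unadjusted). Of 12 genes of ATG8 proteins and autophagy, Map1lc3a (-0.80 ± 0.14) and the kinase Ulk1 (-0.59 ± 0.14) fell (1 higher and 2 lower, unadjusted). Gabarapl2, the partner of Gimap6, differed by 0.05 ± 0.08; it was named after its value was seen.

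In limma 0 of 10 genes of resting lymphocyte trafficking and transcription passed (3 lower, unadjusted). The 2 with the largest test statistic were Bach2, a repressor that holds lymphocytes in a resting state, at -0.59 ± 0.16, and Foxo1, at -0.53 ± 0.15. Of 10 genes of T cell receptor signalling 0 passed in limma (unadjusted, 2 higher and 1 lower), with Plcg1 at -0.34 ± 0.10 and Vav1 at 0.73 ± 0.23. The medians of these lists were -0.14 and -0.05. Naive replicate 1 had a higher T cell receptor mean (0.09) than the other naive samples, whose values were -0.10 and -0.16.

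Interferon-inducible GTPases are the other large family of GTPases of immunity, induced by interferons against microbes inside cells. Of 12 measured, 3 rose: Gbp8 (1.06 ± 0.22), Gbp3 (0.95 ± 0.17) and Mx1 (0.67 ± 0.17). Their median difference was 0.54, beside 0.45 in the Gimap genes, and the difference between the families was not tested. Naive replicate 1 had an interferon-inducible mean of 0.04, above immunized replicates 2 (0.02) and 5 (-0.12) and far above the other naive samples (-0.43 and -0.67). In the Gimap mean the naive samples lay at -0.24, -0.31 and -0.34 and the immunized samples between -0.12 and 0.28, without overlap. The Gimap family was chosen for its values in this contrast, so that separation does not set the families apart. The macrophage, plasma cell and dendritic cell means were also higher in immunized samples without overlap. Those of the disc chondrocyte, nucleus pulposus and autophagy lists were lower without overlap. In immunized replicate 4 the dendritic cell mean held Itgax at 2.62, with every other measured marker of that list below 0.

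Genes on either side of the cluster in the RefSeq order gave a view of the locus. The 3 nearest measured genes before Gimap8 were AI854703, Zfp775 and Repin1, with differences of -0.09 ± 0.07, -0.47 ± 0.16 and -0.27 ± 0.08. After Gimap3 came Tmem176b (0.16 ± 0.10), Tmem176a (0.05 ± 0.15) and Aoc1 (-0.15 ± 0.10). In limma 0 of these 6 passed, while Zfp775 and Repin1 were lower at an unadjusted p under 0.05.

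The 5 genes most like the mean of the 8 members, by Pearson's r over the 8 samples, were Ms4a6c (r = 0.983), Mefv (0.983), H2-T24 (0.980), Cd44 (0.978) and Mndal (0.978). Ms4a6c encodes a membrane protein of myeloid cells, Mefv the inflammasome protein pyrin, H2-T24 an MHC class I-like protein, Cd44 the hyaluronan receptor and Mndal a member of the interferon-induced Ifi200 family. Their differences were 0.98 ± 0.15, 1.30 ± 0.17, 0.94 ± 0.21, 0.72 ± 0.13 and 1.21 ± 0.14. After group means were subtracted, the most alike were Itm2b (0.977), Mefv (0.965), Mndal (0.963), Srcap (0.959) and St8sia4 (0.956). Itm2b had a difference of -0.01 ± 0.08 between the groups. These genes were the highest of 18185 ranked once provisional gene names were passed over, so high values of r were chosen.

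The Gimap calls depended on which samples were included. Over 16 other settings the difference ran from 0.79 to 1.03 in Gimap9, from 0.56 to 0.79 in Gimap4, from 0.49 to 0.66 in Gimap1 and from 0.44 to 0.65 in Gimap7. The members whose groups overlapped moved more for their size, from 0.21 to 0.51 in Gimap3, from 0.17 to 0.39 in Gimap5, from 0.13 to 0.35 in Gimap8 and from -0.08 to 0.10 in Gimap6. Gimap9 kept its call in 8 of these settings, Gimap1 and Gimap7 in 7 each and Gimap4 in 6, while Gimap3 was called in 1 of them, with array weights. Quantile normalization of the deposited values left Gimap7 and Gimap9 called and moved the calls over all genes from 812 higher and 851 lower to 540 higher and 368 lower. The number of members called in limma was 0 without naive replicate 1, 2 or 3 and without immunized replicate 1 or 5 (5, 4, 4, 4 and 4 at an unadjusted p under 0.05). It was 4, 3 and 3 without immunized replicates 2, 3 and 4. The count over all genes, 1663 with every sample, went to 374, 21 and 176 when naive replicate 1, 2 or 3 was left out. It went to 148, 3003, 758, 868 and 394 when an immunized replicate, from 1 to 5, was left out.

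**Figure D4:**
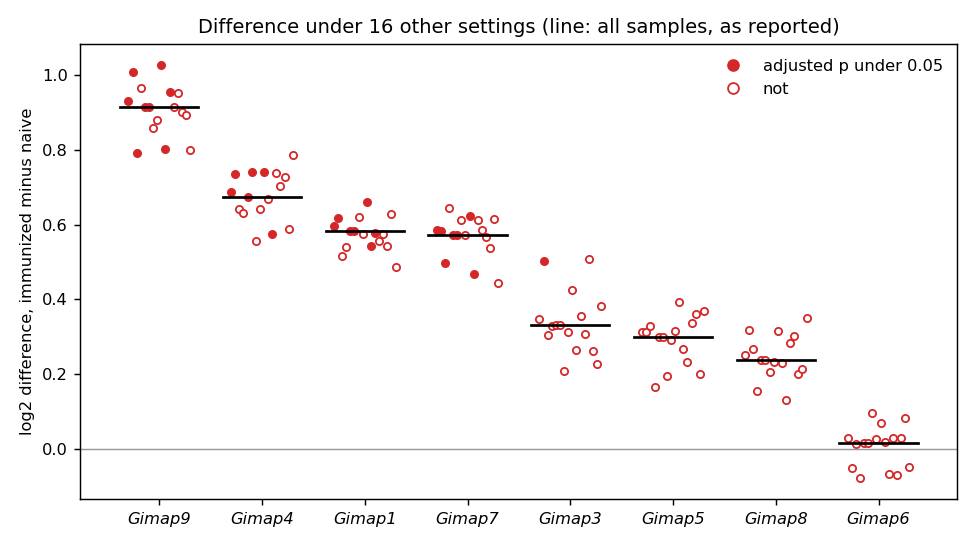
For each Gimap gene, circles give the log2 difference, immunized minus naive, under 16 other settings, and the line gives the value with all samples as reported. Filled circles had an adjusted p under 0.05. The circles of Gimap9 lie between 0.79 and 1.03, and those of Gimap6 lie on both sides of 0.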

How the data were processed

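Total RNA from 8 disc samples (3 naive, 5 immunized) was labelled with biotin and hybridized to Affymetrix mouse arrays, per the labels. The deposited table holds log2 values, 1 for each probe set on each array, and was made by RMA (robust multi-array averaging), as the submitters' processing notes name it. RMA works in log base 2, which the table itself does not say. The median of every probe set is 0 to within 5.0e-07, so the deposited log2 values were also centred per probe set, a step the labels do not record. Differences between groups are unaffected, and absolute levels are lost. Single-precision numbers are spaced by size, which shows the rough level of a probe set's lowest array.

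Genes came from the platform's annotation and took their current symbols from RefSeq (GRCm38.p6) by gene identifier. Of the 45101 probe sets, 34958 named 1 gene, 932 several and 9211 none, and 64 control probe sets were left out. Immunized and naive samples were compared in limma 3.58.1 (R 4.3.3; lmFit, two-sided eBayes, without covariates), with Benjamini-Hochberg adjustment over 18193 genes and a threshold of 0.05. The fit was checked on simulated data, with each gene drawn independently and at the same spread on every array. Real arrays differed in SD, from 0.209 to 0.411, so the check does not bear on how calls depend on single samples. Where nothing shows that samples came from separate mice, p-values measure only the spread between samples.

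The members and the 18 gene lists were chosen with earlier results of these data known, and the promoter letters after the values were seen. Named were all members, up to 3 called genes of each list (otherwise 2) with the largest absolute t, Cd3e, Pecam1, Acan, the 3 nearest measured genes on each side of the cluster, and the 5 genes most like the members' mean, provisional names passed over; a further gene of this rule is not reported here. Of 191 list genes 169 were measured.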

Additional observations from a re-analysis of the deposited data

Results flagged for a closer look

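Among 73 genes and probe sets examined for an immunized sample far from the other 4, 4 were marked. For a single item not chosen by its values, chance would mark about 1 in 20. That rate does not hold for this set, whose items share the same arrays and were in part chosen by their values. In the Gimap7 probe set 1444283_at immunized replicate 3 stood at 0.59, against -0.03 to 0.08 in the others. Immunized replicate 2 stood low in Lyz2 (-0.17, others 0.17 to 0.27), Mefv (-0.30, others 0.30 to 0.48) and Srcap (-0.30, others -0.05 to 0.01). Mefv and Srcap had been picked for their likeness to the Gimap mean. Immunized replicate 2 was the lowest immunized sample in that mean (-0.12, others 0.15 to 0.28), so low values there were selected for.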

How the results depend on the processing

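With all samples 4 Gimap genes, 1663 genes and 29 list genes were called in limma. The counts were 2, 908 and 14 after quantile normalization, and 0, 54 and 1 at an adjusted p under 0.01. At an adjusted p under 0.1 all genes gave 3783 and the lists 57, and with array weights 5900 and 81. Without both samples with joined numbers the counts were 0, 0 and 0 (4 members, 1621 higher and 2173 lower genes and 43 list genes at an unadjusted p under 0.05). Leaving out 1 sample at a time gave 0 to 4, 21 to 3003 and 1 to 54. Without naive replicate 1 and immunized replicates 3 and 5, the samples highest in erythroid genes, a choice made after seeing the data, they were 0 (6 unadjusted), 218 and 11. With the replicate number as a block they were 0 (4 unadjusted), 7 and 0 (67 unadjusted). Deviations of same-numbered samples correlated at -0.047, 0.243 and -0.101, and the samples did not all correlate best with their own number. So few pairs, with group means subtracted, cannot show whether the numbers pair the samples. The median Gimap difference stayed between 0.38 and 0.54. The planned filter on low mean levels could not be run on centred values. The causes were not tested. Small differences, such as that of Gimap6, are limited by the number of arrays.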
